A study of Mus musculus with 16 samples.

Results

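Chromatin accessibility of heterozygous and wild-type cells labelled CC was compared peak by peak in mouse spleen. The comparison takes 8 of the 16 libraries of the series, 4 heterozygous (HET CC) and 4 wild-type (WT CC), chosen by genotype and population label, and all 82188 peaks of the count table. WT mice carry the genotype Smarca4+/+ and HET mice Smarca4+/-. All are C57BL/6 mice of 8 to 10 weeks. The assay was Omni-ATAC, in which a transposase cuts and tags open chromatin, and the series addresses how Smarca4 dosage shapes accessibility in germinal center B cells. The labels do not spell out CC, read here as centrocytes, or CB, read as centroblasts. They give no sort gate, no Cre driver, no account of which part of Smarca4 is lost, no sex and no pooling. No label ties the replicates to different animals, and p-values here cover the spread among these 8 libraries alone, which may be technical.

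Germinal centers are sites where B cells mutate their antibody genes and are selected. Centroblasts divide and mutate in the dark zone, and centrocytes are tested for antigen binding and T cell help in the light zone before they recycle or leave as memory B or plasma cells. Smarca4 encodes BRG1, an ATPase motor of the BAF complex, which slides or evicts nucleosomes and so opens regulatory DNA.

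Accessibility at gene starts is easiest to read beside the DNA itself. In windows from 250 bases before to 50 bases after each RefSeq gene start (GRCm38.p6, the assembly that mm10 denotes), 10990 of 32815 were overlapped over at least 150 bases by a tested peak, and 21 windows of 19 genes by a peak that changed in HET CC. The 4 printed here are those of genes named in the results that follow. Gcsam, which encodes a signaling adaptor of germinal center B cells, has its window at chr16:45610190-45610489 on the plus strand. Its start peak rose in HET CC (log2 fold change 0.77, SE 0.184, quasi-likelihood test of edgeR, p adjusted by Benjamini-Hochberg = 0.038). The other start peaks fell. Gpr183 encodes an oxysterol receptor that positions B cells (chr14:121965144-121965443, minus strand, log2 -0.75, adjusted p = 0.0242). Klf6 encodes a zinc finger transcription factor (chr13:5861239-5861538, plus strand, -0.40, 0.00946), and Sox4 an HMG-box transcription factor of lymphoid progenitors (chr13:28953650-28953949, minus strand, -0.69, 0.00946). Without HET CC replicates 2 and 4, described below, the log2 fold changes were 0.59 (Gcsam), -0.50 (Gpr183), -0.36 (Klf6) and -0.38 (Sox4), and none was called. Capitals mark matches on either strand to 8 short motifs: TGANTCA (AP-1), GGAAGT (ETS), TGTGGT (RUNX), CAGCTG (the E-box of E proteins), CACGTG (the E-box of MYC), ATGCAAA (octamer), CCAAT (NF-Y) and GGGCGG (SP/KLF).
Gcsam: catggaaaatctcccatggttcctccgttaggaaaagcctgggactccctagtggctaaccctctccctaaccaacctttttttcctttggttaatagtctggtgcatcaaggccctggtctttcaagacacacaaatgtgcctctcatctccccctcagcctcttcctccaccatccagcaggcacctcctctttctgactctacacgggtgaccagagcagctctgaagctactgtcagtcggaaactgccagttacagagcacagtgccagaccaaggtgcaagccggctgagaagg
Gpr183: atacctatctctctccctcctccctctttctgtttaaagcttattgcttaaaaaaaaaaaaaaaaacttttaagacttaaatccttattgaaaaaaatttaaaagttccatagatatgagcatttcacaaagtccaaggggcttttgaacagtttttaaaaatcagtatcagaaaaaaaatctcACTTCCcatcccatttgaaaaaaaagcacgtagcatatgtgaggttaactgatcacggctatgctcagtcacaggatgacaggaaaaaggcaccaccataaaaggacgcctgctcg
Klf6: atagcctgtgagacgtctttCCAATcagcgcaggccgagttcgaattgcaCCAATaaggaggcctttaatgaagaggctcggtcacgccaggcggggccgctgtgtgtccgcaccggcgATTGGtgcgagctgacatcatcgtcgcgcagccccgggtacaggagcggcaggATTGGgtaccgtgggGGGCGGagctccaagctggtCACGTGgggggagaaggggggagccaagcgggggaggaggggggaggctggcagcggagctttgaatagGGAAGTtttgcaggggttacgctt
Sox4: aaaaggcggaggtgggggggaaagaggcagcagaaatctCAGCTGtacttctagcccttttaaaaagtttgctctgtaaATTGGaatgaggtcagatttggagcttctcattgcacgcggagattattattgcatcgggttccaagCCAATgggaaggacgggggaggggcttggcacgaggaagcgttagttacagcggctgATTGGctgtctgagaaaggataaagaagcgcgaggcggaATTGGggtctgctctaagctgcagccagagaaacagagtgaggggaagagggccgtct

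None of the 8 motifs is in the Gcsam window. Gpr183 holds 1 ETS match. Klf6 holds 4 NF-Y matches and 1 each of ETS, MYC E-box and SP/KLF, and Sox4 has 4 NF-Y matches and 1 E protein E-box. Among the 16 windows at peaks that fell, NF-Y letters were in 43.8%, ETS in 37.5% and SP/KLF in 62.5%, against 38.4%, 29.8% and 66.8% of all windows overlapped by a tested peak. RUNX was in 12.5% against 12.6%, AP-1 in 6.2% against 4.4%, the E protein E-box in 6.2% against 14.5%, the MYC E-box in 6.2% against 10.9% and the octamer in 6.2% against 3.6%. Only 5 windows lay at peaks that rose. These matches describe letters in the windows and were not tested.

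The libraries differed in depth and in 3 further ways that run together. WT CC totals were 3663486, 3494356, 3575423 and 3750936 counts in peaks, and HET CC totals 5834594, 7474760, 5310327 and 6368844, a ratio of means of 1.73 with no overlap. Depth and genotype therefore cannot be told apart among CC libraries. With every library thinned to the smallest total, 205 genes and 83 peaks were called, against 271 and 186. Of the 271 genes and 186 peaks, 188 and 74 were called again in the same direction. On a line from the WT CB mean (0) to the WT CC mean (1), WT CC replicates 1 to 4 stood at 0.882, 0.944, 0.909 and 0.870, each left out of its own mean. HET CC replicates 1 and 3 stood at 0.849 and 0.866, and replicates 2 and 4 at 0.694 and 0.654. So 2 of the 4 HET CC libraries lay nearer to CB than the other 6 CC libraries, and the group means were 0.901 ± 0.0326 and 0.766 ± 0.108 (SD, n = 4). The same 2 libraries were the deepest and stood apart at Firre, an X-linked locus of a long noncoding RNA, with 103.8 and 91.7 CPM (counts scaled to a common library total after TMM normalization) against 229.7 and 207.0 CPM in HET CC replicates 1 and 3 and 163.6 to 217.3 CPM in WT CC. Xist, the RNA of X inactivation, showed the same division, at 35.0 and 33.5 CPM against 51.4 and 54.1 CPM, with 47.0 to 60.2 CPM in WT CC. On the line between CB and CC, HET CB replicates 1 to 4 stood at -0.049, -0.091, -0.055 and -0.104. All lay below WT CB replicates 1 to 4, at -0.013, 0.038, -0.006 and 0.029. In CB, replicates 2 and 4 of both genotypes were also the lower ones at Firre (97.6 to 107.8 CPM against 140.7 to 161.9 CPM). The part of depth, of these X-linked differences or of the closeness to CB in the results was not tested, and most called genes and peaks below are given with and without HET CC replicates 2 and 4.

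**Figure D1:**
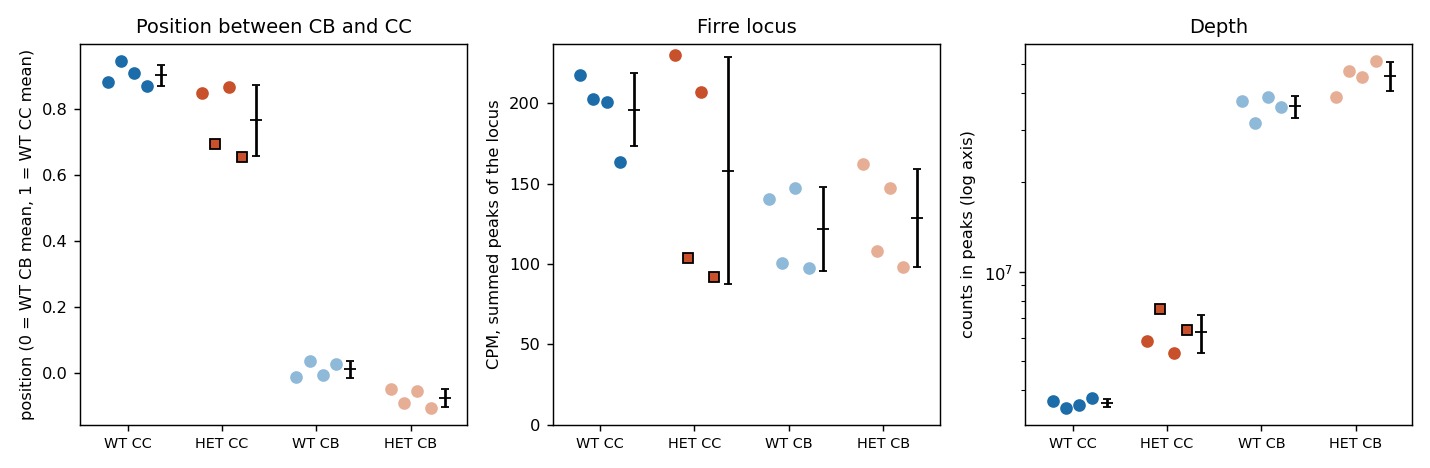
Position between CB and CC, Firre accessibility (CPM) and depth (counts in peaks, log axis) of each library; each point is a library, squares with a black edge are HET CC replicates 2 and 4, and bars beside the points are mean ± SD (n = 4). The squares lie at 0.694 and 0.654 in position, below the other 6 CC libraries, and at 103.8 and 91.7 CPM at Firre.

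Germinal center loci were open in every CC library, though less than in CB. The summed accessibility of the 24 loci of the germinal center program with a peak was 4253 to 4640 CPM in WT CC, 4584 to 4994 CPM in HET CC and 6026 to 6206 CPM in CB. The 30 loci of the light zone program with a peak summed to 4864 to 5180 CPM in WT CC, 4746 to 4877 CPM in HET CC, 5050 to 5241 CPM in WT CB and 5008 to 5099 CPM in HET CB, with 1 member at 0 in some CC library. Its members went both ways between the populations: Cd83, an activation marker of centrocytes, averaged 342.7 CPM in WT CC and 397.0 CPM in WT CB, and Nfkbia 247.4 and 184.5 CPM. The label CC is therefore kept as a label. T cell markers summed to 740 to 869 CPM in WT CC, 611 to 746 CPM in HET CC and 407 to 432 CPM in CB, and no member of the list was at 0 in any CC library. In these bulk samples, fewer cells of a type and less accessibility per cell cannot be told apart.

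The Smarca4 locus, at 9:21616106-21704230 with 9 peaks, did not pass the test. WT CC libraries stood at 152.8, 164.5, 155.0 and 184.6 CPM and HET CC libraries at 139.8, 156.6, 164.7 and 156.2 CPM. The groups overlapped, and the log2 fold change was -0.09 (SE 0.0705, adjusted p = 0.606), or -0.11 without HET CC replicates 2 and 4 (adjusted p = 0.89). At the peak 96 bp from the gene the log2 fold change was -0.25 (SE 0.0964, adjusted p = 0.258), and no peak of the locus passed. Accessibility of the locus does not check the genotype, since the labels do not say which part is lost.

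In the 8 CC libraries, 7 of 24 germinal center loci, among them Gcsam, S1pr2 and Fas, were more open in HET than in WT. Some loci of naive and memory genes, among them Klf2, S1pr1 and Vim, were less open. Receptors that position B cells went both ways, and most members of these lists were not called. Of 14781 genes tested on their summed peaks, 118 rose and 153 fell (1.83% called, 0.798% up and 1.04% down). Of 75643 peaks tested, 77 rose and 109 fell (0.246% called, 0.102% up and 0.144% down). The median log2 fold change of called genes was 0.43 for rises and -0.35 for falls, and that of called peaks 0.93 and -0.68. Values of the 4 WT and 4 HET libraries did not overlap at 200 of the 271 called genes, against 7.12% of all genes tested, and at 147 of the 186 called peaks, against 5.73% of all peaks tested. The calls rest on these same values, so this excess is partly fixed and is no further evidence. For the largest rises and falls named below, such as Gcsam, S1pr2, Sox4, Cobll1 and Trbc2, values without overlap were a condition of naming. The share of calls that are rises depends on scaling: total counts gave 153 rises and 116 falls among genes, and upper-quartile factors 166 and 106. For peaks, total counts gave 98 rises and 63 falls.

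Without HET CC replicates 2 and 4, 1 gene (0.00678% of those tested) and 1 peak (0.00133%) remained called by edgeR, while 949 genes (6.44%) and 3941 peaks (5.25%) had an unadjusted p below 0.05, against 2221 (15%) and 8716 (11.5%) with all 8 libraries. The gene was Susd6 and the peak lies inside Wdr63. Of the 271 called genes, 270 could be tested in these 6 libraries and all 270 had the same sign, which is partly fixed because 6 of the 8 libraries are shared. Their median absolute log2 fold change went from 0.38 to 0.25. At called genes that rose, the median log2 ratio to the WT CC mean was 0.33, 0.50, 0.28 and 0.55 in HET CC replicates 1 to 4. Replicates 1 and 3 thus lay on the same side as 2 and 4 but nearer to WT. These genes were called with all 4 HET CC libraries, so the shared side is partly fixed too. Without HET CC replicates 1 and 3 instead, 1100 genes (7.44%) and 1299 peaks (1.71%) were called, with 262 of the 271 genes and 177 of the 186 peaks called again in the same direction. Leaving out a single library gave from 42 genes (without HET CC replicate 2) to 489 (without HET CC replicate 3), with 60 without HET CC replicate 4 and 76, 137 and 147 without WT CC replicates 2, 3 and 1. For peaks it gave 0 without HET CC replicate 2, 2 without HET CC replicate 4, 17, 75 and 91 without WT CC replicates 2, 3 and 1, and 352 and 426 without HET CC replicates 1 and 3. At 0 called peaks, 6064 peaks (8.26%) still had an unadjusted p below 0.05.

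**Figure D2:**
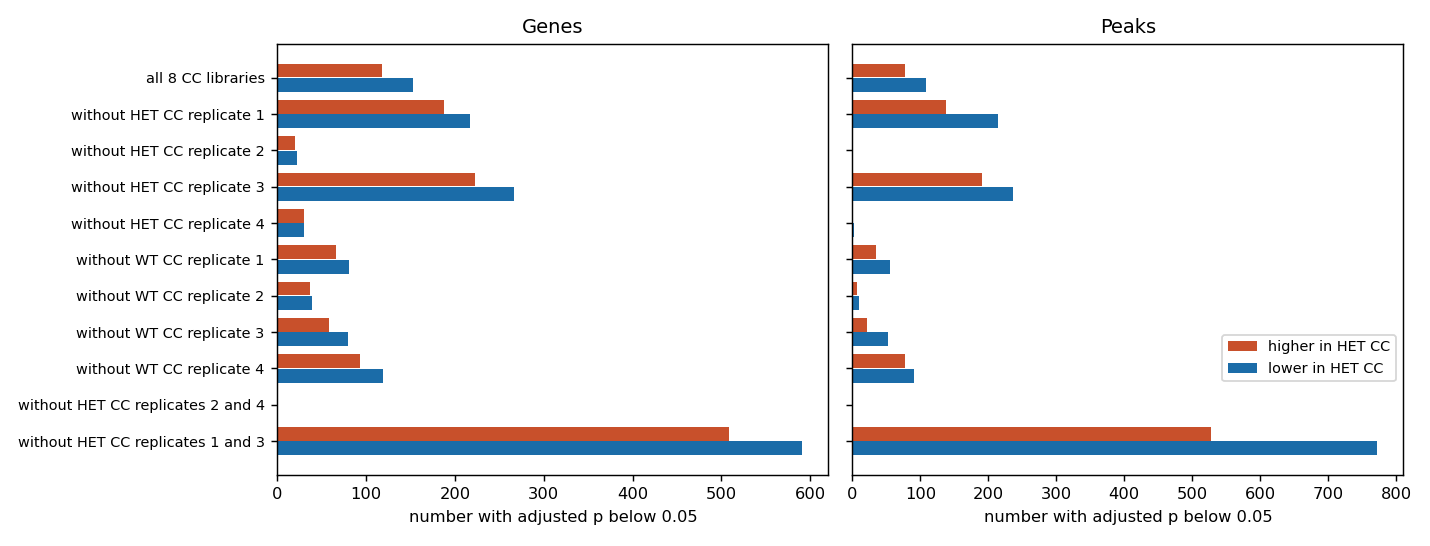
Number of genes (left) and peaks (right) with an adjusted p below 0.05 in the 8 CC libraries and with libraries left out, as bars for rises and falls in HET CC. Calls are fewest without HET CC replicates 2 and 4 (1 gene and 1 peak) and without HET CC replicate 2 (42 genes and 0 peaks), and most without HET CC replicates 1 and 3 (1100 genes and 1299 peaks).

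Among germinal center genes Gcsam had the largest rise. WT CC stood at 50.7, 50, 56.4 and 64.7 CPM and HET CC at 76.4, 96.6, 71.4 and 113.8 CPM. The groups did not overlap, and replicates 2 and 4 were highest (log2 0.70, SE 0.11, adjusted p = 0.000272, and 0.42 with adjusted p = 0.469 without them). S1pr2, a receptor that confines B cells to the follicle, stood at 48.7, 32.5, 53.1 and 60.1 CPM in WT CC and at 62.3, 81.3, 65.7 and 82.6 CPM in HET CC. The lowest HET value is just above the highest WT value (0.59, SE 0.118, adjusted p = 0.00438, and 0.40 with 0.516 without replicates 2 and 4). Fas, the death receptor of germinal center B cells, stood at 87.1, 84.7, 86.6 and 114.6 CPM in WT CC and 116.9, 145.0, 103.7 and 153.6 CPM in HET CC. Here WT CC replicate 4 lay above HET CC replicate 3 (0.48, SE 0.0949, adjusted p = 0.00337, and 0.25 with 0.635 without the pair).

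In all, 7 of 24 tested members of the germinal center program rose and 0 fell, with a list median of 0.10 against 0.00 over all genes. Of all genes tested 0.798% rose and 1.04% fell. Besides Gcsam, S1pr2 and Fas, rises included Rassf6 (0.41, adjusted p = 0.00671, and 0.16 with 0.824 without the pair), Nuggc (0.37, 0.0346, and 0.23 with 0.782), and Basp1 (0.28, 0.0226, and 0.10 with 0.877), a membrane-associated signaling protein. Without HET CC replicates 2 and 4 none of the 24 was called by edgeR (4 rises and 1 fall at an unadjusted p below 0.05) and the median was 0.08. Of all 14746 genes tested without the pair, 426 were higher and 523 lower at that unadjusted p. The dark zone program had 2 rises among 17, Gcsam among them, and a median of 0.03. Cxcr4, the chemokine receptor that draws B cells to the dark zone, was at 0.00 (SE 0.0508, adjusted p = 0.999), and Bcl6, a repressor that germinal center B cells require, at -0.01 (SE 0.0699, adjusted p = 0.974). The light zone program had 1 fall among 29 and a median of -0.07. Its fall was Nfkbia, the NF-kB inhibitor (-0.23, adjusted p = 0.0328, and -0.17 with 0.64 without the pair), with WT CC at 233.6 to 262.0 CPM and HET CC at 197.8 to 221.6 CPM. Cd83 (0.11, adjusted p = 0.358), Cd86 (0.18, 0.131) and Myc (-0.09, 0.506) did not pass.

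Of 25 members of B cell receptor signaling 2 rose and 0 fell, with a median of 0.04, against 0.798% and 1.04% of all genes tested. Cd81, a tetraspanin of the B cell surface, stood at 112.7, 121.7, 118.0 and 116.3 CPM in WT CC and at 143.7, 150.6, 128.2 and 155.6 CPM in HET CC. All HET values were higher (0.31, SE 0.074, adjusted p = 0.0158, and 0.22 with adjusted p = 0.624 without the pair). Rasgrp3, a Ras exchange factor downstream of the receptor, rose by 0.20 on the log2 scale (SE 0.0526, adjusted p = 0.0262), with WT CC at 341.1 to 394.2 CPM and HET CC at 406.8 to 430.8 CPM. Replicates 2 and 4 were its highest HET libraries at 430.8 and 420.0 CPM, with 1 and 3 at 407.3 and 406.8 CPM, and the log2 fold change was 0.17 without the pair (adjusted p = 0.554).

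Falls included loci of naive and memory B cells. In the memory B cell program 6 of 20 members fell and 0 rose, with a median of -0.12. In the naive follicular list 5 of 13 fell and 0 rose, with a median of -0.10. Of all genes tested 1.04% fell and 0.798% rose. Klf2 and S1pr1 are members of both lists. Without HET CC replicates 2 and 4 the medians were -0.05 and -0.09, and no member was called by edgeR (4 falls in each list at an unadjusted p below 0.05). Of all 14746 genes tested then, 523 fell at that unadjusted p. Klf2, a transcription factor of lymphocyte trafficking, stood at 125.0, 153.4, 118.0 and 136.1 CPM in WT CC and 111.3, 102.3, 110.2 and 112.3 CPM in HET CC. Its HET values lay close together, so the fold change was similar without replicates 2 and 4 (-0.29, SE 0.078, adjusted p = 0.0399, and -0.26 with 0.547).

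S1pr1, the egress receptor that Klf2 activates, fell from 438.6, 497.8, 439.4 and 469.1 CPM in WT CC to 417.5, 346.6, 398.4 and 370.2 CPM in HET CC. The groups did not overlap (-0.27, SE 0.0549, adjusted p = 0.00482, and -0.17 with 0.534 without the pair). Satb1, a chromatin organizer of lymphocytes, fell by 0.32 on the log2 scale (adjusted p = 0.00289, and -0.21 with 0.505), and Ccr7, the chemokine receptor of the T zone border, by 0.31 (0.025, and -0.09 with 0.895). At Ccr7 the WT CC libraries stood at 217.9 to 267.9 CPM, and HET CC replicates 1 and 3 at 226.3 and 225.1 CPM lay among them, while replicates 2 and 4 were at 158.2 and 169.6 CPM. Vim, an intermediate filament of memory cells, went from 123.3, 141.9, 141.2 and 125.1 CPM to 108.3, 90.2, 107.8 and 97.1 CPM. No value overlapped (-0.40, SE 0.0787, adjusted p = 0.00337, and -0.29 with 0.484), and 2 of its 5 peaks fell. Klf3 (-0.32, adjusted p = 0.0451, and -0.14 with 0.872 without the pair) and Ski (-0.23, 0.0474, and -0.13 with 0.824), both of the memory list, fell too.

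**Figure D3:**
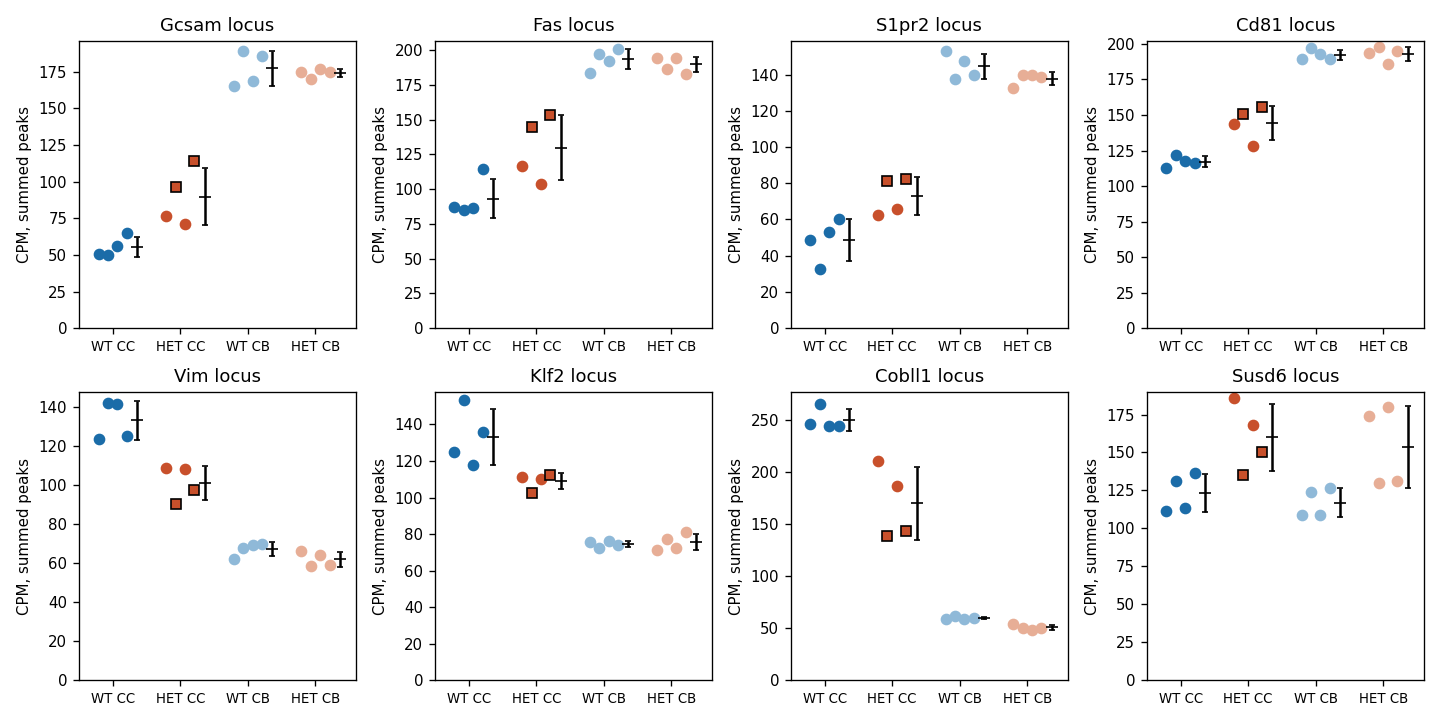
Accessibility (CPM of the summed peaks of the locus) of 8 loci in each library; each point is a library, squares with a black edge are HET CC replicates 2 and 4, and bars are mean ± SD (n = 4). HET CC means lie between WT CC and CB at Gcsam, Fas, S1pr2, Cd81, Vim, Klf2 and Cobll1, with the squares nearest to CB among HET CC at all of these but Klf2, and Susd6 is the exception with its squares lowest among HET CC.

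Receptors that position B cells moved both ways, with 3 rises and 4 falls among 19, against 0.798% and 1.04% of all genes tested. Besides S1pr2, the rises were Gpr55, a lipid receptor (0.42, adjusted p = 0.00499, and 0.33 with 0.484 without the pair), and Ackr4, an atypical chemokine receptor (0.63, 0.0126, and 0.45 with 0.593). Ackr4 is a low locus, at 16.4 to 31.2 CPM in WT CC and 33.3 to 46.2 CPM in HET CC. Besides S1pr1 and Ccr7, falls included P2ry12, a purinergic receptor: WT CC stood at 117.0, 121.1, 118.0 and 115.4 CPM and HET CC at 93.1, 89.3, 106.1 and 95.7 CPM. HET CC replicate 3 was its highest HET library and still below WT (-0.30, SE 0.0783, adjusted p = 0.0321, and -0.24 with 0.602). Gpr183, whose start peak fell, did not pass as a locus (-0.25, adjusted p = 0.0626, and -0.17 with 0.774 without the pair).

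Transcription factors other than Klf2 and Klf3 included Klf6, Jun and Sox4. Klf6 stood at 325.4, 342.0, 351.9 and 354.5 CPM in WT CC and 306.7, 280.2, 307.2 and 272.8 CPM in HET CC, without overlap (-0.23, adjusted p = 0.0143, and -0.16 with 0.635 without the pair). Jun, an AP-1 subunit, was the 1 member of 15 in the AP-1 list that fell (-0.26, adjusted p = 0.00981, and -0.16 with 0.593). Its HET CC replicate 1, at 430.0 CPM, lay within the WT range of 414.9 to 459.7 CPM, and the other HET libraries stood at 337.9 to 350.0 CPM. Sox4 went from 117.8, 120.5, 126.5 and 115.1 CPM to 100.6, 69.9, 81.0 and 81.9 CPM. All HET values were lower, which its naming among the largest falls requires. Replicates 1 and 3 alone gave -0.40 against -0.53 with all 8 libraries (SE 0.0865, adjusted p = 0.000311, and 0.248 without the pair). In the ETS, IRF and B cell factor list 3 of 25 fell (Klf2, Klf3 and Klf6), against 1.04% of all genes tested. Irf4 (-0.05, adjusted p = 0.801) and Spi1 (-0.08, 0.672) did not pass.

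By the naming rule the largest rises included, besides Gcsam and S1pr2, Trp73, a p53 family transcription factor (0.58, adjusted p = 0.000433), Col24a1, a collagen (0.54, 0.00499), Slc22a15, a solute carrier (0.53, 0.00168), Cybrd1, a ferric reductase (0.53, 0.00337), Myrfl (0.52, 0.000287), Epn2, an endocytic adaptor (0.50, 0.0146), and Supt3 (0.48, 0.0161). Without HET CC replicates 2 and 4 these 7 stood between 0.29 (Slc22a15) and 0.42 (Supt3). The largest falls were Scn3a, a sodium channel (-0.58, 0.00375), Trbc2, a T cell receptor constant gene (-0.58, 0.00438), Cobll1 (-0.56, 2.78e-05), Pcbp3, an RNA-binding protein (-0.55, 0.00312), Sox4, Enpp3, an ectonucleotide pyrophosphatase (-0.50, 0.00687), Dthd1 (-0.49, 0.000424), Dse, dermatan sulfate epimerase (-0.48, 0.000691), Cd226, an adhesion receptor (-0.48, 0.00499), and Slc38a11 (-0.47, 0.00843). Without the pair they stood between -0.27 (Dse) and -0.40 (Sox4). Cobll1 (chr2:65088339-65239398), Slc38a11 (chr2:65313663-65364026) and Scn3a (chr2:65457118-65567591) lie near each other, so their falls may not be separate. Cobll1 had WT CC at 246.5, 265.8, 244.2 and 244.8 CPM and HET CC at 211.2, 138.4, 186.7 and 143.3 CPM. The WT values lay close together and all above HET, which the naming rule requires. CB averaged 59.9 (WT) and 50.7 (HET) CPM.

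Susd6, a membrane protein with a sushi domain, was the 1 gene called with and without HET CC replicates 2 and 4. WT CC stood at 111.5, 131.1, 113.3 and 136.4 CPM and HET CC at 185.6, 135.3, 168.4 and 150.3 CPM. Here replicates 1 and 3 were the high ones, and replicate 2 lay within the WT range (0.38, SE 0.0811, adjusted p = 0.00706, and 0.53, SE 0.0858, adjusted p = 0.000171 without the pair). WT CB stood at 108.8, 123.8, 108.6 and 126.6 CPM and HET CB at 174.3, 129.9, 180.1 and 131.2 CPM, and the CB difference was not called (0.40, adjusted p = 0.152). HET CB replicates 1 and 3 were the high ones too, and the part of this division in the call was not tested. A peak inside Susd6 (chr12:80791532-80792032) was at 5.28, 7.95, 5.64 and 4.93 CPM in WT CC and at 15.7, 11.7, 11.1 and 14.1 CPM in HET CC (1.15, SE 0.237, adjusted p = 0.012, and 1.18 with 0.702 without the pair). The peak called with and without the pair, inside Wdr63 (chr3:146048856-146049356), stood at 8.62, 9.13, 11.8 and 10.4 CPM in WT CC and at 1.89, 3.56, 3.02 and 5.74 CPM in HET CC. Replicates 1 and 3 were lowest there (-1.47, SE 0.287, adjusted p = 0.00946, and -2.02 with 0.0189).

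At single peaks the largest named rises were low in WT. A peak inside Txndc5 (chr13:38522225-38522725) went from 6.67, 6.18, 3.66 and 4.65 CPM to 11.7, 13.5, 8.87 and 16.5 CPM (1.27, SE 0.249, adjusted p = 0.00946, and 0.96, not called, without the pair). Others lay inside Pphln1 (1.31, adjusted p = 0.014), Ncapg (1.28, 0.0109), Dock8 (1.23, 0.0373), Col24a1 (1.21, 0.012) and A4galt (1.18, 0.0332) and at a gene end of Rest (1.28, 0.0282). Without the pair these 6 stood at 0.79 (Pphln1), 1.16 (Ncapg), 0.88 (Dock8), 0.98 (Col24a1), 1.08 (A4galt) and 0.65 (Rest), and none was called. The largest fall by the naming rule lay inside Sipa1l1 (chr12:82349996-82350496). It went from 14.5, 14.4, 16.3 and 12.3 CPM to 6.54, 4.88, 8.12 and 6.21 CPM (-1.17, SE 0.225, adjusted p = 0.00946, and -0.97 with 0.798). All HET values were lower, which that rule requires. The smallest adjusted p of a named peak, 0.00163, belonged to a distal peak 368969 bp from Atp23 (chr10:126498610-126499110), at 23.3, 31.8, 18.9 and 33.1 CPM in WT CC and 16, 10, 16.8 and 10.1 CPM in HET CC (-1.03, SE 0.172, and -0.70 with 0.798). The other named falls lay inside Cobll1, Dpt and Mpp7, near Herpud2, and beyond 50 kb by Actl7b and Atp2b1, from -0.92 to -1.02. Without the pair they stood between -0.65 (Cobll1) and -1.05 (Mpp7), and none was called.

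Called peaks are described next by where they lay. Of the 77 peaks that rose 54.5% were inside a gene, 9.1% within 1 kb of a gene start or end and 15.6% beyond 50 kb from any gene. Of the 109 that fell, 27.5% were inside, 28.4% near a start or end and 22.9% beyond 50 kb from any gene. Of all tested peaks 44.8%, 23.0% and 8.7% fell into these classes. The difference between these shares was not tested, and called peaks near gene ends had a median of 43.6 CPM among falls, more than the 17.6 CPM of falls inside genes. Of all counts, 45.78%, 45.70%, 45.24% and 44.98% lay near a gene start or end in WT CC and 44.88%, 44.29%, 44.83% and 44.36% in HET CC. The HET values were all lower, by 0.83 percentage points on average (exact two-sided permutation test, p = 0.0286, the lowest possible with 70 splits, adjusted p = 0.0571 over 4 classes). WT CB averaged 41.86% and HET CB 42.47%, so in CB the HET mean was the higher one. Inside genes the share was 0.66 points higher in HET CC (exact permutation p = 0.0286, adjusted p = 0.0571). In CB the inside share averaged 35.77% in WT and 35.57% in HET, again the other way. The CB differences were not tested. Without HET CC replicates 2 and 4 the CC differences were -0.57 points near a start or end and 0.38 points inside genes (exact permutation test over 15 splits, adjusted p = 0.267 for both). With 15 splits no p below 0.05 is possible, so this test cannot show whether the differences hold without the pair.

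T cell loci fell at 2 of 17 members, against 1.04% of all genes tested, with a list median of -0.17. Trbc2 stood at 70.5, 69.9, 76.0 and 62.7 CPM in WT CC and at 54.6, 41.4, 57.6 and 34.4 CPM in HET CC, and at 6.50 and 4.47 CPM in WT and HET CB. No value overlapped, which its naming among the largest falls requires (-0.58, adjusted p = 0.00438, and -0.31 with 0.596 without the pair). Cd3d, a chain of the T cell receptor complex, fell by 0.39 on the log2 scale (adjusted p = 0.0427, and -0.17 with 0.872), with replicates 2 and 4 lowest at 45.8 and 46.2 CPM. The T cell sum was also lowest in these 2 libraries, at 669 and 611 CPM against 723 and 746 CPM, and the part of T cell DNA in the falls of naive and trafficking genes was not tested. NK cell markers had no edgeR call among 11 (median -0.16, 2 lower at an unadjusted p below 0.05). Myeloid (13), erythroid (5) and stromal (11) markers had none either, with medians of 0.08, 0.23 and -0.07, and 3, 1 and 1 were higher and 1, 0 and 2 lower at that unadjusted p. Of all 14781 genes tested, 1047 were higher and 1174 lower at the same unadjusted p.

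Other programs showed few calls. The 29 BAF subunits had 1 rise, Dpf1 (0.59, adjusted p = 0.025, and 0.43 with 0.674 without the pair), at 17.6 to 25.8 CPM in WT CC and 24.9 to 34.9 CPM in HET CC, and a median of -0.03. Arid1a, a BAF subunit that is often mutated in cancer, was at -0.20 (adjusted p = 0.105, and -0.10 with 0.881). In the list of lymphoma tumor suppressors and chromatin regulators S1pr2 rose and Sgk1, a kinase, fell (-0.29, adjusted p = 0.00546, and -0.17 with 0.593 without the pair) among 27. Kdm6a, an X-linked histone demethylase, fell (-0.26, 0.0407, and -0.10 with 0.877 without the pair) among 12 X inactivation and escape loci, whose median went from -0.13 to 0.02 without the pair. No member was called among 17 plasma cell loci, where Prdm1 was at -0.15 (adjusted p = 0.27), 17 MYC and growth genes, 28 cell cycle genes, 17 interferon genes and 4 antigen presentation genes. At an unadjusted edgeR p below 0.05 these lists had 3, 1, 3, 2 and 0 members higher and 5, 0, 0, 2 and 0 lower. All 14781 genes had 1047 higher and 1174 lower at that unadjusted p. Of the 374 distinct list members tested 28 were called, 12 up and 16 down, against 1.83% of all genes tested. Without HET CC replicates 2 and 4, 0 were called, against 0.00678% of all genes tested.

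**Figure D4:**
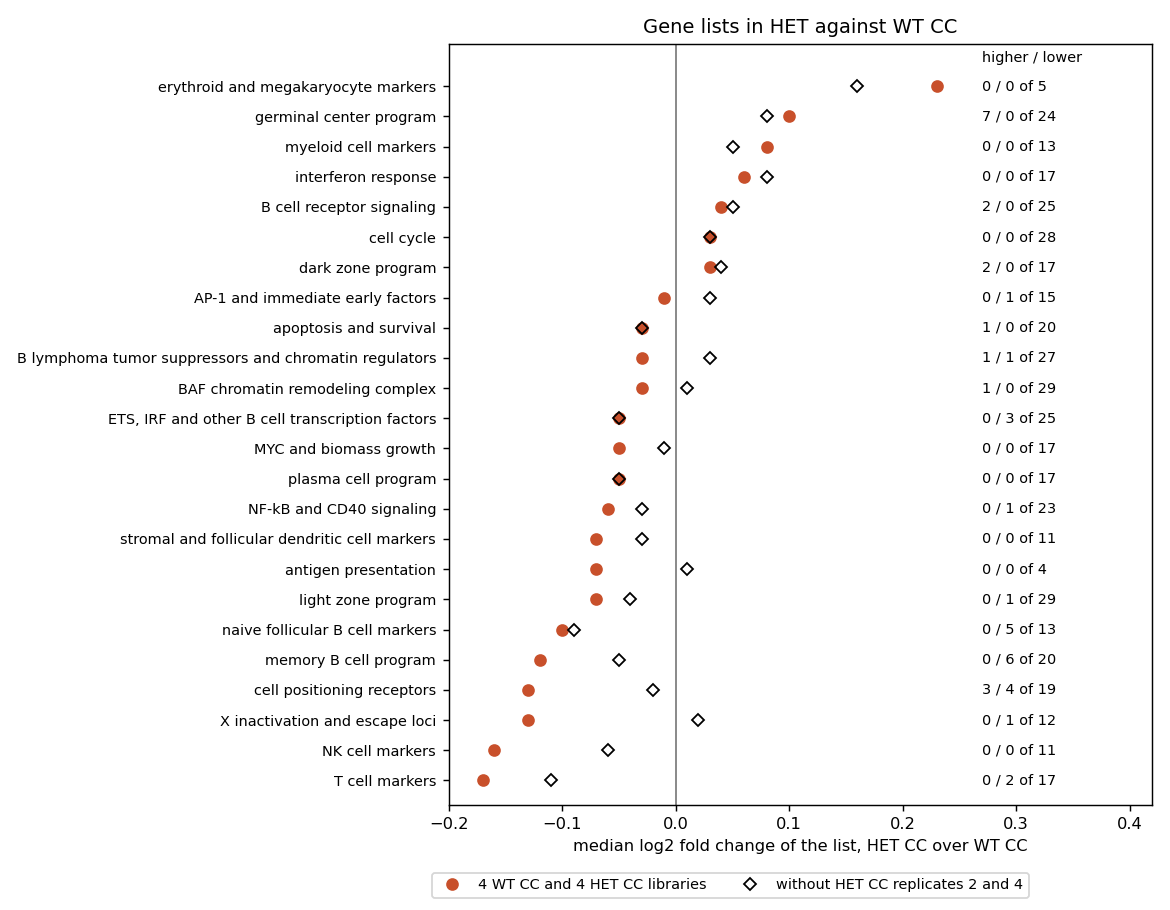
Median log2 fold change (HET CC over WT CC) of 24 gene lists with all 8 libraries (circles) and without HET CC replicates 2 and 4 (diamonds); the text at right gives members called higher and lower of those tested, with all 8 libraries. The germinal center program has 7 rises and a median of 0.10, and the memory and naive lists have 6 and 5 falls and medians of -0.12 and -0.10. Of all genes tested 0.798% rose and 1.04% fell.

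The CB libraries are separate from the CC libraries but may come from the same animals, which the labels do not say. They gave 452 called genes of 15071 for HET against WT (3% called, 0.823% up and 2.18% down). Of the 271 genes called in CC, 220 had the same sign in CB (81 of 118 rises and 139 of 153 falls). The share of all genes with the same sign is not given here. Of the 271, 43 were called in CB in the same direction (7 rises and 36 falls) and 0 in the opposite one. Across the 271 genes the log2 fold changes of CC and CB had r = 0.60 (Spearman rho 0.70), and over all genes 0.29 (0.28). These values describe genes that are not independent replicates. The 271 were selected for their CC change in either direction, which alone can raise r, so no conclusion is drawn from the difference. The median CB log2 fold change was 0.03 at the 118 genes that rose and -0.11 at the 153 that fell, and the difference between these medians was not tested. Cobll1 (-0.24, adjusted p = 0.00359), Trbc2 (-0.55, 0.0271), Scn3a (-0.57, 0.0162) and Dse (-0.38, 0.0124) fell in CB too. Cobll1 and Scn3a lie near each other and may not be separate falls. Gcsam (-0.02, adjusted p = 0.774), S1pr2 (-0.07, 0.274) and Fas (-0.03, 0.663) did not pass in CB.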

How the data were processed

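The authors deposited raw counts per 501 bp peak in a table of the whole series. Per the submitters' processing notes, build mm10 was used with BWA, FastQC, deepTools and R 4.2.1. The peak caller and the way reads were counted are not given in the sources used here. The 8 CC libraries were fitted with edgeR 4.0.16 in R 4.3.3 (TMM scaling, filterByExpr, robust quasi-likelihood test, Benjamini-Hochberg adjustment over all peaks or genes). An adjusted p below 0.05 is a call. Peaks went to the nearest protein-coding gene (RefSeq, GRCm38.p6) within 50 kb, 91.0% of peaks and 15079 genes, so a locus value is the accessibility around a gene. Printed CPM share 1 TMM scale over 16 libraries. SE follows from the F statistic. A peak held a median of 22 to 24 counts in WT CC libraries and 35 to 50 counts in HET CC libraries. Reads were amplified by PCR and are not independent molecules. Promoter windows came from RefSeq.

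Genes and peaks named are the 10 genes and 8 peaks with the largest rise and fall among calls above the median level without overlap (5 each way without HET CC replicates 2 and 4), up to 4 members per list by p, and fixed genes. The Wdr63 peak, the peaks of Vim and the Gpr183 start were singled out after values were seen. Not every gene meeting this rule is reported here, though list counts include all. Members and lists were chosen with earlier results of these data known. DESeq2 1.42.0 and limma 3.58.1 (voom) were alternatives, with other scalings, filters, assignments and libraries. The test script was tested on simulated data.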

Additional observations from a re-analysis of the deposited data

Results flagged for a closer look

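Single libraries stood far from the other 3 of their group in 7 of 158 groups examined, where chance flags about 1 in 20. In WT CC these were Cobll1 (265.8 CPM), Enpp3 (104.0), Cd86 (183.8), Fas (114.6) and the peak inside Ncapg (6.7). In HET CC they were Jun (430.0) and the distal peak by Atp2b1 (12).

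HET effects in CC and CB differed (CC minus CB, edgeR quasi-likelihood interaction over all 16 libraries, adjusted p below 0.05) at 15 of 57 named genes and 7 of 17 named peaks examined. This fit estimates the spread from CC and CB together. CB varied less, with a gene-level coefficient of variation of 4.8% (WT) and 3.3% (HET), against 8.1% and 8.2% in CC. The p-values may therefore be too small for CC, and the interaction was not fitted without HET CC replicates 2 and 4. The log2 differences were 0.73 for Gcsam (adjusted p = 0.0106), 0.66 for S1pr2 (0.0147), 0.51 for Fas (0.0455), 0.39 for Nuggc, 0.47 for Gpr55, 0.58 for Ackr4 and 0.30 for Cd81. They were 0.42 for Trp73, 0.62 for Col24a1, 0.55 for Cybrd1, 0.48 for Myrfl, 0.56 for Epn2 and 0.46 for Supt3. At S1pr1 (-0.29) and Jun (-0.34) the HET effect was more negative in CC than in CB. The peaks lay at Pphln1 (1.14), Ncapg (1.35), Rest (1.32), Txndc5 (1.22), Dock8 (1.20), Col24a1 (1.28) and A4galt (1.24). CB and CC libraries of 1 number were taken as unpaired here. With each such pair as a block, an alternative chosen after seeing the data, 12 of the 15 genes and 4 of the 7 peaks were called again in the same direction (Fas, Nuggc and Supt3 and the peaks at Pphln1, Rest and Dock8 were not), and 2 further genes, Pcbp3 (-0.52) and Kdm6a (-0.33), were called. Genes and peaks were named for their change in CC, which favors a difference of this direction. The share of all genes and peaks passing the same test is not given here, so these counts do not set the named ones apart.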

How the results depend on the processing

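Called genes numbered 271, 998 in the fit of all 16 libraries, 32 from peaks within 1 kb of a gene start or end, 1100 without HET CC replicates 1 and 3 (an alternative chosen after seeing the data) and 1 without replicates 2 and 4. Leaving out single libraries gave 42 to 489. Called peaks numbered 186, with 52 by DESeq2, 1694 in all 16 libraries, 83 at equal depth, 1299 without HET CC replicates 1 and 3 and 1 without 2 and 4, and 0 to 426 without single libraries. The replicate block gave 87 peaks and 279 genes. Same-numbered WT CC and HET CC libraries had deviations from the group means that correlated at -0.021 to 0.009, and 0 of 4 WT CC libraries matched their own number best. Same-numbered CB and CC libraries of 1 genotype correlated at 0.029 to 0.038 (WT) and 0.029 to 0.074 (HET). Replicates 1 with 3 or 2 with 4 correlated at 0.006 to 0.032 (WT) and 0.041 to 0.052 (HET), the latter within the range of the same-numbered ones. Replicates 1 or 3 with 2 or 4 correlated at -0.036 to -0.014 (WT) and -0.067 to -0.037 (HET). These values are small, and CB and CC were taken as unpaired. Called list members numbered 28, 67 without HET CC replicates 1 and 3, 0 without 2 and 4, and 8 and 12 without HET CC replicate 2 or 4. Of the 45 called genes that the naming rule selects, 1 was called without the pair and 20 to 25 without HET CC replicate 2 or 4 or WT CC replicate 2 (22). Of 16 named peaks 8 were called by DESeq2, 10 with the replicate block, 10 at equal depth, 0 without the pair and 0 to 16 without single libraries. Signs changed at uncalled genes: Cxcr4 (0.00 in the 8 libraries, -0.04 without HET CC replicates 1 and 3, -0.03 to 0.00 without single libraries, and 0.00 by DESeq2, voom and all 16 libraries), Bcl6 (-0.01, with 0.01 by total counts or upper quartile, 0.07 without the pair, -0.07 to 0.03 without single libraries), Xist (-0.28, and 0.01 without the pair) and Firre (-0.32, and 0.16 without the pair). The cause of these shifts was not tested.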
